A study of Homo sapiens with 9 samples.

Results

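The mRNAs of 5 genes for post-transcriptional repressors, PUM2, PUM3, NANOS1, SAMD4A and SAMD4B, were compared between RNA that co-purified with the CCR4-NOT complex and input RNA of HEK293T cells, a human embryonic kidney line. The genes were chosen by name for their function, with earlier results of these data known, and all 5 were found among the 30956 genes of the deposited table. RNA immunoprecipitation (RIP) used a V5-tagged form of CNOT7, a nuclease subunit of CCR4-NOT, with the D40A substitution that impairs its catalytic activity. There were 3 libraries of RIP RNA and 6 of input RNA, of which 3 came from cells treated with doxycycline (3 µg/mL, 24 h) and 3 from untreated cells. The labels do not give the doxycycline state of the RIP cells, the way the tagged protein was expressed or whether replicates were separate cultures, so p-values measure only the spread between these libraries. The table has columns for the 3 RIP libraries and for 3 of the 6 inputs. These 3 columns are named as input without their doxycycline state and are called inputs 1 to 3 here. Their means give the folds of the authors' deposited table, with a median absolute difference of 0.00028 on the log2 scale over 14384 genes.

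PUMILIO proteins bind a short UGUA-containing element in the 3′ untranslated regions of mRNAs and recruit CCR4-NOT, which shortens the poly(A) tail and so promotes translational repression and decay. NANOS proteins are zinc finger partners of PUMILIO that contact CCR4-NOT, first known from embryonic patterning and the germ line. SMAUG proteins, encoded in humans by SAMD4A and SAMD4B, recognise RNA hairpins through a sterile alpha motif domain and also recruit CCR4-NOT in flies. The measurements concern the mRNAs that encode these repressors, not the mRNAs that the proteins bind.

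The libraries held 37140622, 40764899 and 38229122 reads in genes for RIP replicates 1 to 3, and 38911674, 37290120 and 38918356 for inputs 1 to 3. All 6 markers chosen for HEK293T cells were present, at 419 normalized counts or more in each library, whereas ALB and PECAM1, markers of hepatocytes and endothelium, had at most 10.8. RIP replicate 2 stood apart at low counts, with 14786 genes at 0 reads against 6720 and 6398 in replicates 1 and 3. Each of the 5 genes had at least 301 reads in each of the 6 libraries. Mitochondrially encoded RNA made up 18.6% to 26.6% of the input values and 0.931% to 1.12% of the RIP values. Scaling to total reads, in place of the authors' size factors, moved the median log2 fold of all tested genes from -0.049 to 0.43.

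Of the 5 mRNAs, PUM2 and SAMD4A rose in RIP and none fell in the main test. The remaining 3, PUM3, NANOS1 and SAMD4B, did not pass the test in either direction. Genes were tested with limma on log2(normalized count + 1), with Benjamini-Hochberg adjustment over 16918 genes and a threshold of 0.05. Over all tested genes, 22.1% were called higher in RIP and 20.9% lower, so 2 of 5 is read against a call rate of 43.1% in either direction. PUM2 alone was called with at least a 2-fold change, as were 11.2% of tested genes in that direction. In the authors' deposited table PUM2 and SAMD4A rose too, with 20.6% of genes called higher, and SAMD4B fell. SAMD4B also fell in limma with same-numbered libraries as blocks (adjusted p = 0.0315), where 3897 of 16918 genes were called lower. Under total-read scaling 6139 genes (36.3%) were called higher and 1648 (9.74%) lower, against 3743 and 3541 with the authors' scaling. In limma without such blocks, the same 2 of the 5 passed as higher under each scaling, and none passed as lower.

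**Figure D1:**
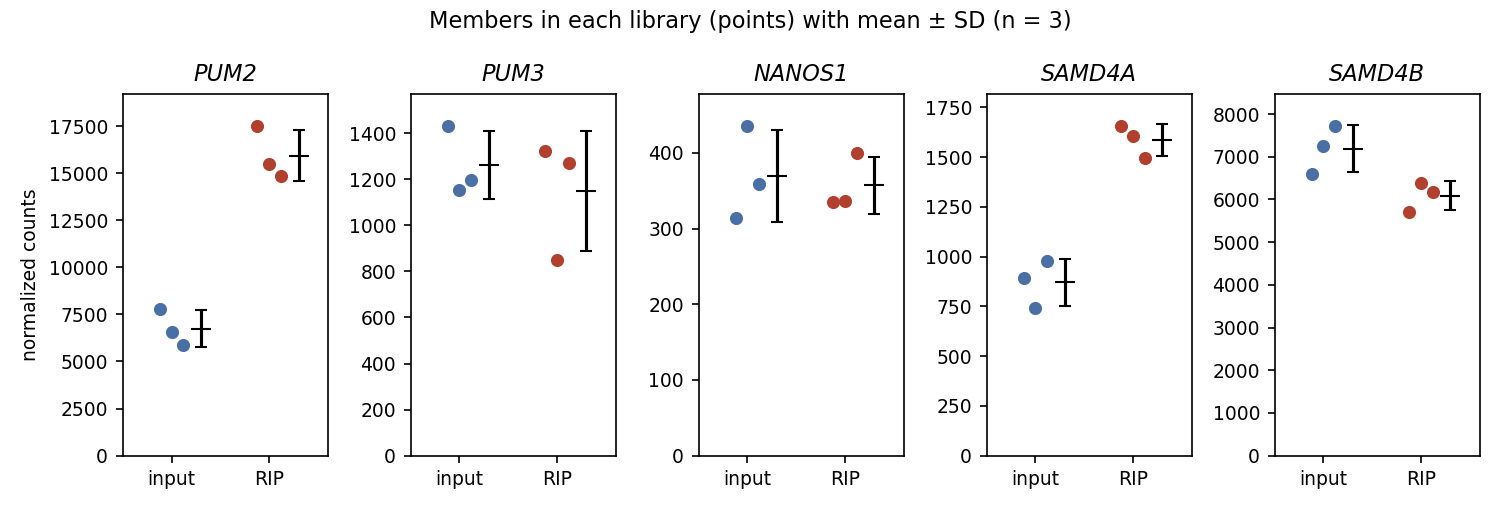
Normalized counts (vertical axes, each from 0) of the 5 mRNAs in inputs 1 to 3 (blue) and RIP replicates 1 to 3 (red), with mean ± SD (n = 3) in black. The groups are separate for PUM2, SAMD4A and SAMD4B and overlap for PUM3 and NANOS1. Of all tested genes, 27.0% had every RIP value above every input and 27.0% every RIP value below.

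PUM2, a PUMILIO protein with the classical RNA-binding repeat domain, had the highest enrichment of the 5 mRNAs. It lies on chromosome 2, 20248691 to 20352253 (ENSG00000055917, RefSeq position in GRCh38.p14). Its normalized counts were 17479, 15466 and 14849 in RIP replicates 1 to 3 and 7784, 6558 and 5853 in inputs 1 to 3. Every RIP library lay above every input, as for 27.0% of tested genes, and the lowest RIP value was well clear of the highest input. The mean was 15931 ± 1375 in RIP and 6732 ± 977 in input (SD, n = 3 each). The log2 fold was 1.25 (SE 0.13, limma adjusted p = 1.64e-05), a 2.38-fold enrichment with a 95% interval of 1.95 to 2.90. In all 6 libraries the gene had at least 5034 reads, and counting error was at most 1.41% of a value, far below the spread between replicates. PUM2 lay above 88.2% of tested genes by its fold. The log2 fold ranged from 1.15 without input 3 to 1.36 without input 1, and was 1.74 under total-read scaling.

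PUM3, which carries related repeats and is best known as a nucleolar protein of ribosome assembly, did not pass the test. It lies on chromosome 9, 2804152 to 2844095 (ENSG00000080608). RIP replicates 1 to 3 had 1322, 847 and 1271 normalized counts, and inputs 1 to 3 had 1429, 1154 and 1198. RIP replicate 2 was below all inputs, while replicates 1 and 3 lay within the input range. The means were 1147 ± 261 in RIP and 1260 ± 148 in input (SD, n = 3 each). The log2 fold was -0.16 (SE 0.20, limma adjusted p = 0.555), with a 95% interval from -0.58 to 0.27. Neither a modest depletion nor a slight enrichment is outside the interval. The sign rests on RIP replicate 2, without which the log2 fold was 0.047, and it was 0.34 under total-read scaling.

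The ratio of PUM2 to PUM3 within a library does not depend on how libraries are scaled. Its size also reflects transcript length, so only its change between groups is compared. The ratio was 13.2, 18.2 and 11.7 in RIP replicates 1 to 3 and 5.44, 5.68 and 4.88 in inputs 1 to 3. All RIP ratios were higher than all input ratios, and how often other gene pairs separate in this way was not counted. The change restates the difference between the log2 folds of the 2 genes and is not separate evidence. On the log2 scale the ratio was 3.82 ± 0.33 in RIP and 2.41 ± 0.11 in input (SD, n = 3 each), a difference of 1.41 (SE 0.20). An exact permutation test, two-sided, gave p = 0.1, the smallest that 3 against 3 allows. That p was also 0.1 after adjustment over the 2 pairs of related genes tested.

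**Figure D2:**
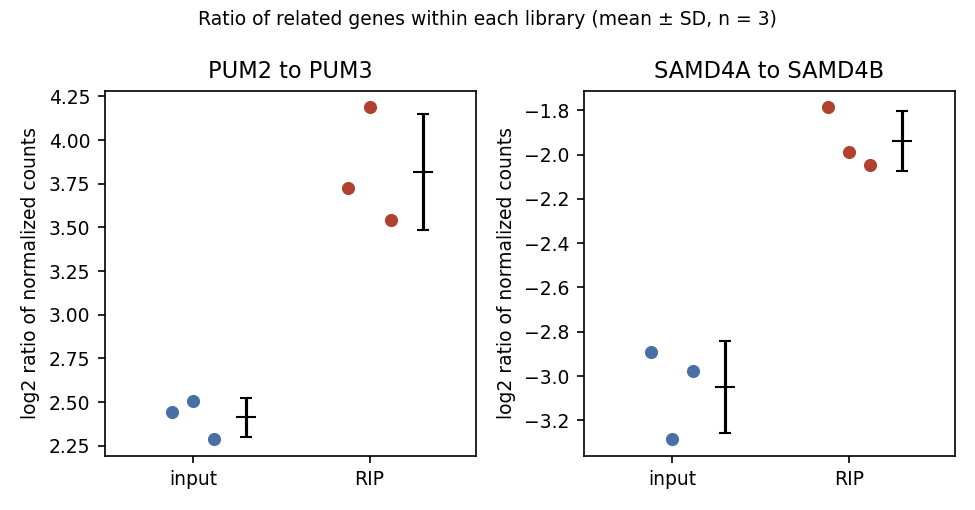
Log2 ratio of normalized counts within each library for PUM2 to PUM3 (left) and SAMD4A to SAMD4B (right), in input (blue) and RIP (red), with mean ± SD (n = 3) in black. Vertical axes do not start at 0. In both pairs the 3 RIP ratios lie above the 3 input ratios, by 1.41 and 1.11 on average.

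NANOS1, the NANOS gene detected in these cells, did not differ detectably between RIP and inputs 1 to 3. It lies on chromosome 10, 119029714 to 119033730 (ENSG00000188613). Normalized counts were 335, 336 and 401 in RIP replicates 1 to 3, against 314, 435 and 359 in inputs 1 to 3. All RIP values fell inside the input range. The means were 357 ± 37 and 370 ± 61 (SD, n = 3 each), a log2 fold of -0.040 (SE 0.25, limma adjusted p = 0.917). Its 95% interval ran from -0.60 to 0.51, the widest of the 5 genes. With 301 to 511 reads per library, counting error was 4.42% to 5.76% of a value. The log2 fold was 0.45 under total-read scaling, where it did not pass the test (limma adjusted p = 0.179). The NANOS1 gene ends inside the annotated span of its neighbour EIF3A, and without a known strand setting reads in that overlap cannot be assigned. NANOS2 had 6 reads in input 3 and NANOS3 had 3 reads in input 2, with none in the other libraries, so neither could be compared. A gene with 0 reads can have a true level of up to 3 reads, or 0.0736 to 0.0808 CPM (counts scaled to a library total of 1000000), for counting error only.

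SAMD4A, which encodes SMAUG1, rose in RIP. It lies on chromosome 14, 54565316 to 54793315 (ENSG00000020577). RIP replicates 1 to 3 had 1654, 1608 and 1496 normalized counts, and inputs 1 to 3 had 890, 743 and 979. The groups did not overlap, as was the case for 27.0% of tested genes with RIP higher. Means were 1586 ± 82 in RIP and 871 ± 119 in input (SD, n = 3 each), and RIP replicates varied less (coefficient of variation 5.15%) than the inputs (13.7%). The log2 fold was 0.87 (SE 0.16, limma adjusted p = 0.000915), a 1.83-fold enrichment with a 95% interval of 1.43 to 2.34. SAMD4A lay above 79.7% of tested genes. Leaving out any 1 of the 6 libraries gave 0.76 to 0.96, with the test passed each time. The antisense gene SAMD4A-AS1, which lies within SAMD4A, had reads only in input 3 (12.8 normalized counts).

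SAMD4B, which encodes SMAUG2, did not pass the test. It lies on chromosome 19, 39342421 to 39390764 (ENSG00000179134). RIP replicates 1 to 3 had 5708, 6383 and 6178 normalized counts, against 6606, 7251 and 7710 in inputs 1 to 3. All RIP values were below all inputs, as for 27.0% of tested genes with RIP lower, but the gap between the groups was small. Means were 6090 ± 346 and 7189 ± 554 (SD, n = 3 each), a log2 fold of -0.24 (SE 0.11, limma adjusted p = 0.116). Its 95% interval ran from -0.49 to 0.011. The authors' deposited table gives the same fold, -0.24 (SE 0.10), with a DESeq2 adjusted p of 0.0441, just past the threshold, where 19.9% of genes were called lower. The direction was not stable to scaling: total-read scaling gave 0.26 (limma adjusted p = 0.107). PAF1 overlaps the end of SAMD4B in the annotation, and reads in the overlap cannot be assigned. PAF1 itself had 1701 to 2294 normalized counts in RIP and 2859 to 3128 in input, and its part in the SAMD4B values was not tested.

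The ratio of SAMD4A to SAMD4B, likewise free of scaling, was 0.290, 0.252 and 0.242 in RIP replicates 1 to 3 and 0.135, 0.103 and 0.127 in inputs 1 to 3. Each RIP ratio exceeded each input ratio, again without a share over other gene pairs, and the change restates the difference of the 2 log2 folds. The difference was 1.11 on the log2 scale (SE 0.14), a 2.16-fold shift in favour of SAMD4A. An exact permutation test, two-sided, gave p = 0.1 with n = 3 per group, again the smallest possible, and 0.1 after adjustment over both pairs. Leaving out 1 library at a time gave 0.99 to 1.19.

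**Figure D3:**
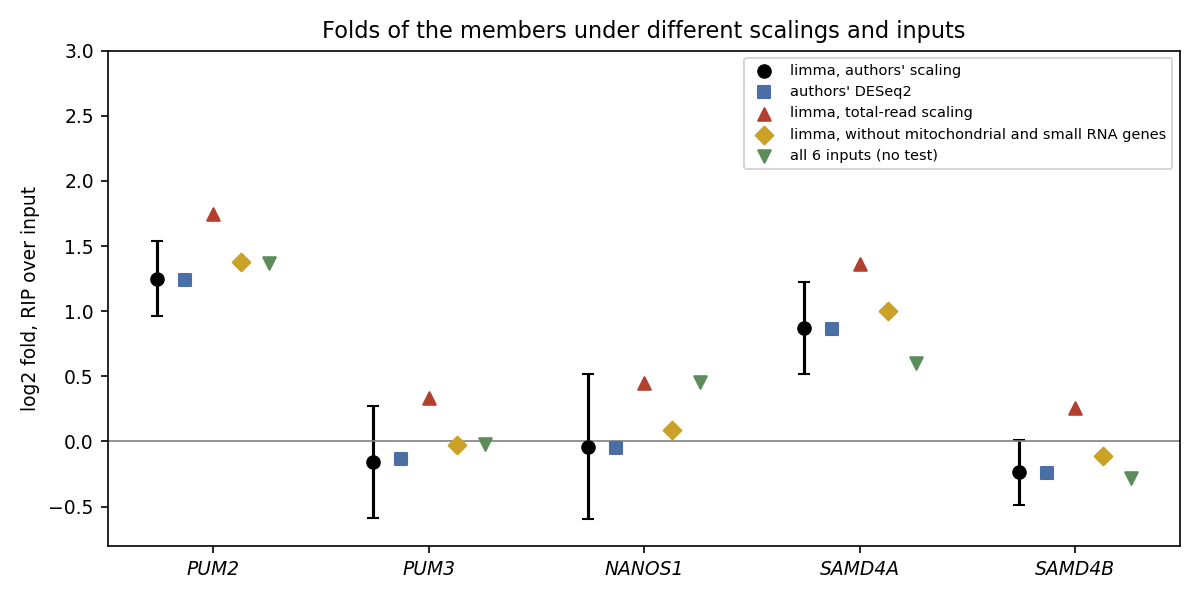
Log2 fold of RIP over input (vertical axis) for the 5 mRNAs: limma with the authors' scaling and its 95% interval (black), the authors' DESeq2 (blue squares), total-read scaling (red), totals without mitochondrial and small RNA genes (yellow) and all 6 inputs as 1 group (green, no test). PUM2 and SAMD4A are above 0 in all 5, while the other 3 cross 0 depending on the setting.

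Set against the whole distribution, PUM2 and SAMD4A lay in its upper part and the other 3 near its middle. The middle 50% of tested genes had log2 folds from -0.80 to 0.71. NANOS1 lay above 50.3% of tested genes, PUM3 above 46.1% and SAMD4B above 42.9%. Relative to the median of all tested genes, the log2 folds were 1.30 for PUM2, 0.92 for SAMD4A, 0.0089 for NANOS1, -0.11 for PUM3 and -0.19 for SAMD4B.

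**Figure D4:**
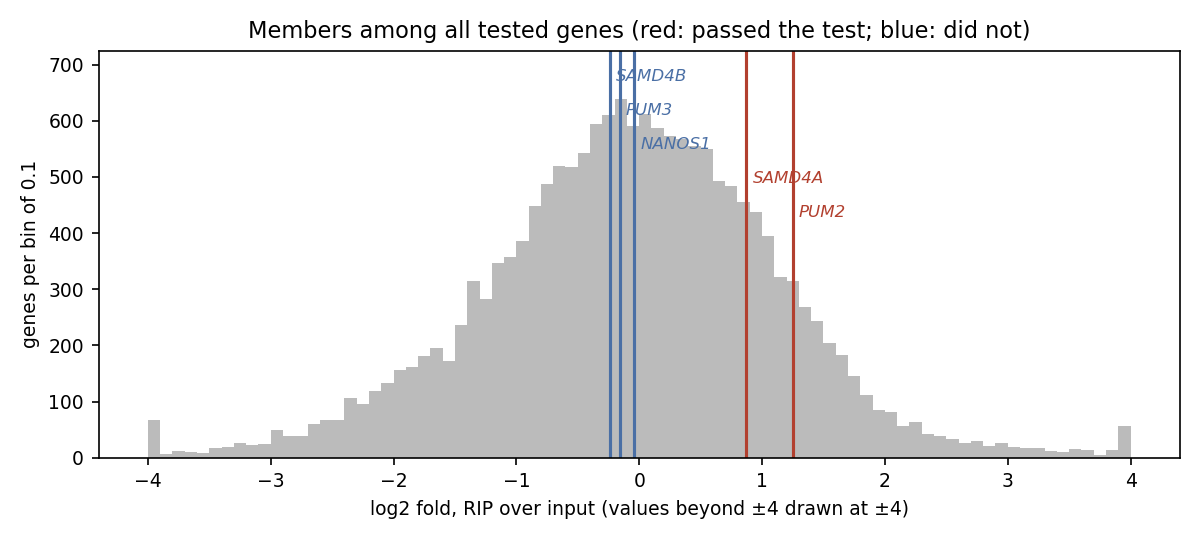
Distribution of the log2 fold of RIP over input for 16918 tested genes (horizontal axis, bins of 0.1; vertical axis, genes per bin), with the 5 mRNAs as lines. PUM2 (1.25) and SAMD4A (0.87), in red, passed the test, and SAMD4B, PUM3 and NANOS1, in blue, lie close to 0.

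The choice of inputs mattered most for NANOS1 and SAMD4A. The authors' mean normalized count was taken over 9 libraries, so the mean of the 3 inputs without a column follows from it by subtraction, with no SD. NANOS1 had 151 normalized counts in these other inputs, 0.409 times the mean of inputs 1 to 3 and below each of their values. A ratio below that of NANOS1 was found for 5.7% of 16898 tested genes. Against the other inputs alone, RIP had 2.36 times as much NANOS1. SAMD4A had 1215 normalized counts there, 1.40 times the mean of inputs 1 to 3, a ratio that 20.5% of genes exceeded. RIP was then 1.31-fold above the other inputs. PUM2, PUM3 and SAMD4B had 5598, 1066 and 7597 normalized counts there, 0.832, 0.846 and 1.06 times the inputs used. With all 6 inputs as 1 group the log2 folds were 1.37 for PUM2, 0.60 for SAMD4A, 0.46 for NANOS1, -0.021 for PUM3 and -0.28 for SAMD4B. CNOT7, the subunit tagged for RIP, had a log2 fold of 1.80 against inputs 1 to 3 and 2.58 against all 6. The other inputs thus held less CNOT7 RNA than inputs 1 to 3. Whether doxycycline separates the 2 sets of inputs was not tested.

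The genes most like each of the 5 across the 6 libraries were found by Euclidean distance between centred log2 values, among genes of similar abundance. For PUM2 these were ADNP and MAP3K21, both at a distance of 0.097 on the log2 scale, with log2 folds of 1.18 and 1.20. SAMD4A was closest to BMP6 (0.16) and ZNF467 (0.17), which had log2 folds of 0.85 and 0.95. SAMD4B had the closest match of all, DEAF1 at 0.061, followed by RRM2 at 0.10. PUM3 was closest to MAP3K13 (0.18) and RECQL4 (0.21), and NANOS1 to MOK and PYM1 (both 0.21). Since the 6 libraries form 2 groups, these distances mostly rank genes by a similar fold.

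Among the other listed genes of the same pathway, enrichment was more frequent than depletion. The lists were chosen with earlier results of these data known, so their counts are descriptive. Over all tested genes, 22.1% were called higher and 20.9% lower, or 36.3% and 9.74% under total-read scaling. Of 20 tested partners and repressors of a similar kind, such as CPEB, TRIM-NHL and eIF4E-binding repressor genes, 12 rose and 2 fell (median log2 fold 0.63, against -0.049 for all tested genes). Those with the smallest p were GIGYF1, part of a translational repressor complex, the TRIM-NHL protein TRIM32 and EIF4ENIF1, an eIF4E-binding repressor. Their log2 folds were 1.57, 1.40 and 0.96. Under total-read scaling 16 rose and 0 fell, and 1 fell without RIP replicate 2 or 3 or without input 1 or 2. Of 23 other adaptors of CCR4-NOT, 14 rose and 3 fell (median 0.84). BTG2, ZFP36L2 and TOB1 had the smallest p, at 2.06, 1.99 and 1.80. Total-read scaling made 17 of the 23 higher and 2 lower. With DESeq2, 15 adaptors were higher and 5 lower, both on recovered reads and as deposited. The deposited shares over all genes were 20.6% higher and 19.9% lower, so 5 of 23 is near the share called lower. Of 12 subunit genes, 6 rose and 2 fell (median 0.52), or 10 and 0 under total-read scaling and 9 and 0 without mitochondrial and small RNA genes. The 2 that fell were no longer called without RIP replicate 1, input 1 or input 2, and 1 was called without RIP replicate 2 or input 3. The scaffold CNOT1, the bait CNOT7 and the associated TNKS1BP1 had the smallest p, with log2 folds of 2.04, 1.80 and 1.63. With all 6 inputs as 1 group CNOT7 had 2.58, since the inputs without a column held less of its RNA than inputs 1 to 3. Reads of endogenous and tagged CNOT7 are not separated by gene counts.

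RNAs that PUMILIO proteins are known to bind or regulate included both enriched and depleted members. Of 19 such RNAs 10 rose and 4 fell (median log2 fold 0.48), against 22.1% and 20.9% of all tested genes, so the count that fell is near the share over all genes. Under total-read scaling 14 rose and 1 fell, against 36.3% and 9.74% of all tested genes. NORAD, a long non-coding RNA with many PUMILIO binding sites, had 28241 ± 2928 normalized counts in RIP and 9495 ± 1717 in input (SD, n = 3 each). Its log2 fold was 1.58 (SE 0.14, limma adjusted p = 6.2e-06). CDKN1B, a cell cycle inhibitor, and E2F3, a cell cycle transcription factor, had 2.34 and 1.93. With the authors' scaling the 4 that fell were MAD2L1, BUB1, CENPE and ATM, at -0.50, -0.46, -1.53 and -0.60. MAD2L1, BUB1 and CENPE act in mitosis, and ATM encodes a kinase. Without mitochondrial and small RNA genes 12 of the 19 rose and 3 fell.

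**Figure D5:**
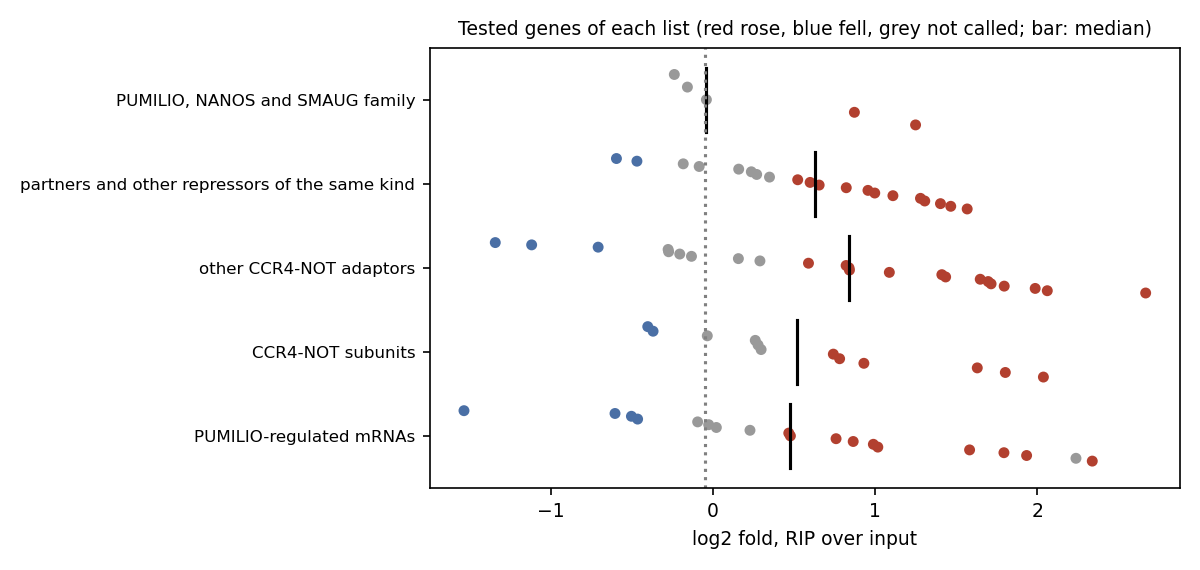
Log2 fold of RIP over input (horizontal axis) for each tested gene of the 5 lists (rows), in red where it rose, blue where it fell and grey where it did not pass the test; black bars are list medians and the dotted line is the median of all tested genes (-0.049). Vertical position within a list is by rank and has no other meaning.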

How the data were processed

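The 9 libraries of cytoplasmic RNA were depleted of ribosomal RNA and sequenced as single 75 bp reads, per the labels. Per the submitters' processing notes, STAR, featureCounts and DESeq2 were used with GRCh38; versions, annotation release and strand setting were not given in the sources used here. Deposited per-library values (a signal) are counts per gene after division by the authors' size factor for that library. All values (100%) were whole multiples of 1 read within 0.01, so whole reads were recovered. The authors' log2 folds and SEs, Wald score, p-value and adjusted p come from DESeq2, per the file headers, and a deposited mean covers 9 libraries.

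The main test was limma 3.58.1 (lmFit, eBayes with trend) on log2(value + 1), on genes with at least 10 reads in at least 3 libraries. A fold on this scale understates the change of low genes. edgeR 4.0.16 and DESeq2 1.42.0 on recovered reads, other scalings, pseudocounts, filters and left-out libraries were alternatives. The code was tested on simulated data. The members and lists were chosen with earlier results of these data known. Named genes were the 5 members, CNOT1, CNOT7, the 3 list members with the smallest p and the 2 most similar genes per member; other names were picked once values had been seen. 1 gene of the lists is not reported here. Positions come from RefSeq gene records of GRCh38.p14, matched by symbol for 5 of 5 genes. No immunoprecipitate from untagged cells was analysed here.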

Additional observations from a re-analysis of the deposited data

How the results depend on the processing

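Total-read scaling gave 6139 genes higher and 1648 lower in RIP, and 4021 and 686 at least 2-fold so, against 1900 and 1780 with the authors' scaling. All other alternatives kept these 4 counts within 1.5 times. With all 6 inputs as 1 group, with no test, the log2 fold moved to 0.46 for NANOS1 and 0.60 for SAMD4A. SAMD4B, at a log2 fold of -0.24, passed the threshold only in the authors' deposited table (DESeq2 adjusted p = 0.0441) and in limma with the replicate block (adjusted p = 0.0315); the cause was not tested. Replicate numbers in the column names were tried as a block because groups share them. Correlations of same-numbered RIP and input deviations were 0.076 to 0.092, and those of unlike numbers were -0.070 to -0.0048. The main test did not use the numbers as pairs. All correlations were small, but each RIP library correlated best with the input of its own number. These values cannot decide whether same-numbered libraries are pairs. The block gave 4034 genes higher and 3897 lower, and changed no call of another member. With it, 9 of the 12 subunit genes rose and 2 fell, and 15 of the 23 other adaptors rose and 5 fell. PUM2 and SAMD4A kept their direction and passed in every alternative that had a test. The paralog ratios kept their direction throughout, but 3 against 3 libraries cannot take their p below 0.1. Counting error was largest for NANOS1, at 4.42% to 5.76% of a value, below its spread between replicates (10.5% in RIP and 16.5% in input).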

Other observations

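The list of partner genes held the whole CPEB family, whose proteins bind cytoplasmic polyadenylation elements, and it was singled out after its values were seen. CPEB1, CPEB2, CPEB3 and CPEB4 had log2 folds of 0.82, 1.47, 1.28 and 1.31. Each passed the test (limma adjusted p of 0.00809, 0.000207, 0.00153 and 0.000251) and every alternative that had a test. Over all tested genes 22.1% were called higher and 20.9% lower, or 36.3% and 9.74% under total-read scaling. The CPEB genes are already counted among the partner genes that rose, and a family picked by its values is not separate evidence. CPEB2 had 1897 ± 483 normalized counts in RIP and 685 ± 169 in input (SD, n = 3 each). The double-stranded RNA-binding genes STAU1 and STAU2 were the 2 partner genes that fell, at -0.59 and -0.47. Under total-read scaling they had -0.10 and 0.025 and were not called. STAU2 was also not called without mitochondrial and small RNA genes (limma adjusted p = 0.111), without RIP replicate 2 or 3 (0.0605 and 0.102) or without input 1 or 2 (0.136 and 0.0813).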
